A study of Mus musculus with 20 samples.

Results

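The unfolded protein response is the set of signals that a cell starts when unfolded proteins collect in the endoplasmic reticulum (ER), and 10 of its genes were followed in the brains of *Winnie* and C57BL/6 mice. These are the genes for the sensors and transcription factors of its 3 branches, found by symbol among the 17211 genes of the deposited table, where all 10 were present. *Winnie* mice carry a germline missense mutation in *Muc2*, the gene for the mucin of the intestinal mucus layer, and develop colitis without any added agent. The groups were 10 *Winnie* mice and 10 C57BL/6 mice with no treatment named, all 14 weeks old and, per the methods, from 1 breeding colony, with 5 males and 5 females per group by label and 1 brain library per mouse. The labels name the brain with no region, so each value is an average over many cell types, in which fewer cells of a type and less RNA per cell cannot be told apart. *Muc2* was not analysed here, so the genotype labels could not be checked on their own gene.

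Misfolded protein in the ER lumen is read by 3 membrane proteins. ATF6 moves to the Golgi, where the site-1 protease encoded by *Mbtps1* and then the site-2 protease cut it, and the freed part enters the nucleus as a transcription factor. IRE1, encoded by *Ern1*, cuts a short intron out of *Xbp1* mRNA in the cytoplasm, and only the spliced mRNA gives the active factor XBP1s. PERK, encoded by *Eif2ak3*, phosphorylates the translation factor eIF2, which slows protein synthesis and favours translation of ATF4, and ATF4 and its target CHOP (*Ddit3*) then switch on *Trib3*, *Asns* and the phosphatase subunit *Ppp1r15a*. ATF6 is activated by cutting, IRE1 and PERK by phosphorylation, and ATF4 largely by translation. The mRNA level of a sensor is therefore not a reading of its activity, and the target genes are given further on for that reason.

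The 20 libraries held 16540303 to 23923769 reads over the listed genes, with medians of 19176351 in C57BL/6 and 19075334 in *Winnie*, and 1 read was worth 0.0418 to 0.0605 CPM (counts scaled to the same total in every library). Markers of neurons, astrocytes and oligodendrocytes summed to 5913 to 6811, 4476 to 5215 and 6359 to 8084 CPM, and 0 of these 19 genes had a false discovery rate (FDR) under 0.05 between the genotypes in limma, with 0, 1 and 1 of them at an unadjusted p under 0.05 and 0 called by edgeR. The sex labels did not hold for C57BL/6. *Xist*, read from the inactive X chromosome, and the Y-linked *Ddx3y* went with the labelled sex in all 10 *Winnie* brains and against it in 9 of 10 C57BL/6 brains, with *Xist* at 646 to 865 CPM in 11 brains and *Ddx3y* at 51.3 to 64.6 CPM in the other 9. Only the genotype label was therefore used. C57BL/6 libraries carry the numbers 1 to 10 and *Winnie* libraries 11 to 20, so library order and genotype cannot be told apart.

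Among the 10 genes, levels were compared per kilobase of annotated exon, since longer mRNAs collect more reads. In C57BL/6 brains the order ran from *Atf4* at 57.3 ± 4.92 CPM per kilobase (SD, n = 10) through *Asns* (36.1 ± 1.41), *Xbp1* (25.5 ± 4.45), *Atf6* (9.09 ± 0.517), *Mbtps1* (6.91 ± 0.476), *Ddit3* (6.16 ± 0.880), *Ppp1r15a* (4.37 ± 0.411), *Eif2ak3* (4.24 ± 0.223) and *Ern1* (1.64 ± 0.200) to *Trib3* at 0.209 ± 0.0743. The factors translated or spliced into action during stress, *Atf4* and *Xbp1*, thus stood above all 3 sensors at the mRNA level. The order was the same in *Winnie* brains. Neighbours in the order did not overlap between brains in 7 of 9 pairs in C57BL/6, where *Mbtps1* with *Ddit3* and *Ppp1r15a* with *Eif2ak3* did, and in 8 of 9 pairs in *Winnie*, where only *Ppp1r15a* with *Eif2ak3* did.

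**Figure D1:**
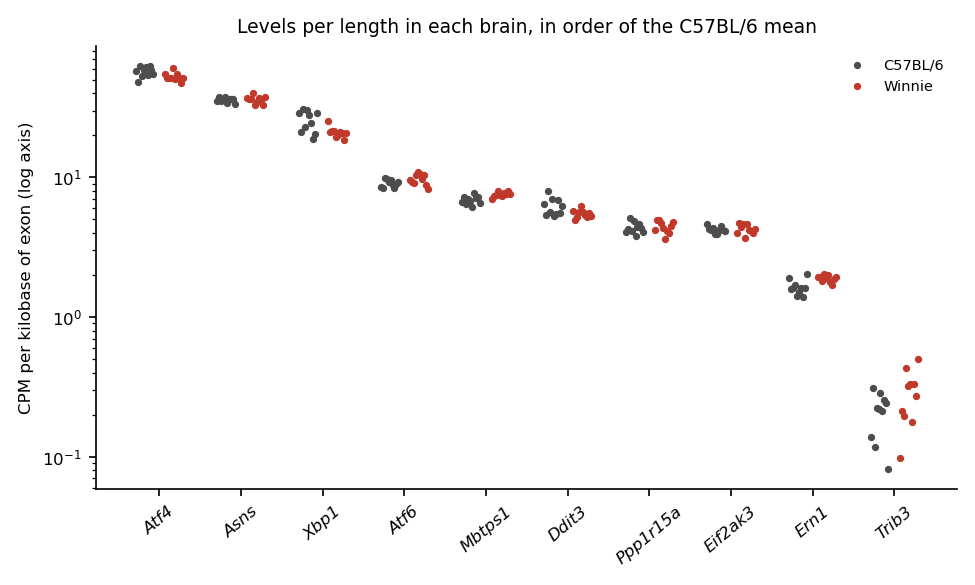
Level of each gene per kilobase of annotated exon (CPM per kilobase, log axis) in each of the 20 brains, with C57BL/6 in grey and *Winnie* in red. From *Atf4* near 57.3 to *Trib3* near 0.209 CPM per kilobase in C57BL/6, the genes follow the same order in both genotypes.

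None of the 10 genes passed the test between the genotypes in limma on log2(CPM + 0.5). At an FDR under 0.05 over all genes, 0 of the 10 were called, where 2.52% of all 17211 genes were (1.52% higher and 1.01% lower in *Winnie*). At an unadjusted p under 0.05 there were 5 of 10, against 17.6% of all genes. These were *Mbtps1* and *Ern1*, higher in *Winnie* as were 9.53% of all genes at this p, and *Xbp1*, *Atf4* and *Ddit3*, lower as were 8.08%. The genotypes overlapped in all 10 genes, and 0.0291% of all genes had no overlap. At the threshold of the study's methods, an FDR under 0.001 with at least a 1.5-fold change, limma called 0 of the 10 and 0% of all genes. The study applied this threshold to edgeR on fewer brains, so this count does not repeat its test. On the log2(CPM + 0.5) scale the 95% confidence interval of the fold change lay within 1.5-fold in either direction for all 10, which for *Trib3* rests on the 0.5 CPM added. Counting models called a few of them. edgeR's quasi-likelihood test called 1 (*Mbtps1*, FDR = 0.0367) among 2.99% of all genes, DESeq2 called 3 (*Mbtps1*, *Ern1* and *Xbp1*) among 6.51% of the genes it tested, and limma voom called 2 (*Mbtps1* and *Ern1*) among 3.17%. limma also called *Mbtps1* and *Ern1* when the CPM were rescaled by median ratios, among 3.01% of all genes, and when genes under a mean of 1 CPM were left out, among 3.17% of the rest. The calls thus depend on the tool for values that lie close to the threshold, while the direction of these 3 genes was the same in each.

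**Figure D2:**
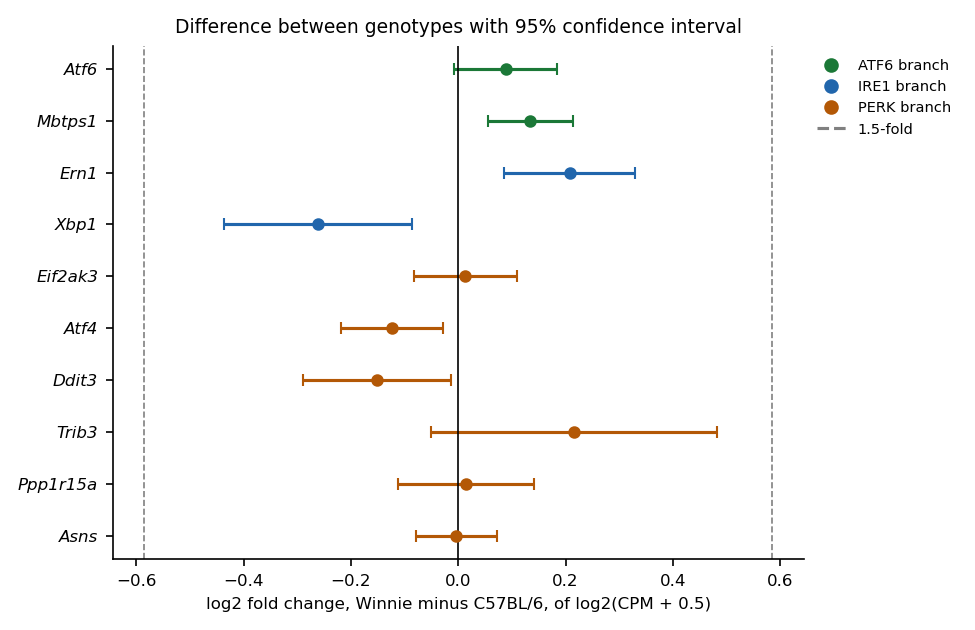
Log2 fold change of each gene (*Winnie* minus C57BL/6, limma on log2(CPM + 0.5), n = 10 per genotype) with its 95% confidence interval, coloured by branch, with dashed lines at 1.5-fold. All 10 intervals lie between the dashed lines on this scale, which understates *Trib3*, and those of *Mbtps1*, *Ern1*, *Xbp1*, *Atf4* and *Ddit3* do not include 0.

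In the ATF6 branch, both genes had higher means in *Winnie*. *Atf6* (chr1:170704674-170867771, minus strand, GRCm38) lay at 77.7, 84.0 and 90.9 CPM as the lowest, median and highest of the C57BL/6 brains, and at 75.7, 88.7 and 100.3 CPM in *Winnie*. *Winnie* brains spread further at both ends, with 4 above the highest and 1 below the lowest C57BL/6 brain. The log2 fold change was 0.089 (SE 0.047, limma FDR = 0.331, two-sided permutation test p = 0.0895), which is within the spread between brains. *Mbtps1* (chr8:119508156-119558735, minus strand), the protease gene, lay at 64.9, 72.6 and 82.0 CPM in C57BL/6 and at 74.2, 79.5 and 84.3 CPM in *Winnie*. All 10 *Winnie* brains were above the C57BL/6 median and 6 C57BL/6 brains were below the lowest *Winnie* brain, but the groups overlapped. Its log2 fold change was 0.13 (SE 0.039, limma p = 0.0017, FDR = 0.0559, permutation p = 0.00154). Averaged over both genes as the deviation of log2(CPM + 0.5) from the C57BL/6 mean, the branch had medians of -0.0040 in C57BL/6 and 0.11 in *Winnie*, and all 10 *Winnie* brains were above the C57BL/6 mean.

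The 2 genes of the IRE1 branch had means that differed in opposite directions, and neither passed the test. *Ern1* (chr11:106394650-106487852, minus strand), the sensor gene, lay at 11.4, 13.2 and 16.6 CPM in C57BL/6 and at 13.8, 15.8 and 16.7 CPM in *Winnie*. All 10 *Winnie* brains were above the C57BL/6 median, and 7 C57BL/6 brains were below the lowest *Winnie* brain. C57BL/6 replicates 1 and 10, at 15.6 and 16.6 CPM, lay among the *Winnie* values. The difference on the log2 scale was 0.21 (SE 0.060, limma p = 0.0015, FDR = 0.0541, permutation p = 0.00338), a 1.16-fold higher level that narrowly missed the threshold. With each brain left out in turn, the limma FDR of *Ern1* ranged from 0.0148 to 0.118 and was under 0.05 for 2 of them. The lowest was without C57BL/6 replicate 10 (log2 fold change 0.24) and the highest without C57BL/6 replicate 5 (0.19). *Xbp1* (chr11:5520659-5525893, plus strand), whose mRNA is the substrate of IRE1, lay at 60.8, 85.3 and 99.8 CPM in C57BL/6 and at 60.3, 67.9 and 82.0 CPM in *Winnie*. All 10 *Winnie* brains were below the C57BL/6 median and 5 C57BL/6 brains were above the highest *Winnie* brain.

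C57BL/6 brains were not uniform for *Xbp1*. Replicates 1, 3, 5, 6 and 10 lay between 90.4 and 99.8 CPM and replicates 2, 4, 8 and 9 between 60.8 and 74.3 CPM, where most *Winnie* brains lay, with replicate 7 between them at 80.2 CPM. The coefficient of variation was 17.5% in C57BL/6 and 8.45% in *Winnie*. The log2 fold change was -0.26 (SE 0.084, limma p = 0.0054, FDR = 0.0961, permutation p = 0.0120), a level 0.835 times that of C57BL/6. Of the brains left out in turn, only C57BL/6 replicate 8 brought a call (-0.31, limma FDR = 0.0378). The highest FDR, 0.176, came without C57BL/6 replicate 5 (-0.23). As a description, the log2 ratio of *Xbp1* to *Ern1* CPM (each with 0.5 added) ranged from 2.28 to 3.02 with a median of 2.52 in C57BL/6. In *Winnie* this ratio ranged from 1.95 to 2.33 with a median of 2.07, and all 10 brains were below the C57BL/6 median. The ratio reuses the values of the 2 genes given above, which already differed in opposite directions, so it is no separate evidence.

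The stretch that IRE1 removes is shown because the deposited values cannot see it. It has 26 bases at chr11:5524279-5524304 (GRCm38, plus strand) and lies inside 1 coding exon of the annotation, as read from the GENCODE M21 transcript *Xbp1*-201, where it takes bases 815 to 840. The capitals mark the bases that are cut out, within 15 bases of mRNA on each side.
Xbp1 mRNA: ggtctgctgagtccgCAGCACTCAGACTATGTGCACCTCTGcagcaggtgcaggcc
A read is counted for *Xbp1* whether or not it holds these bases, so the CPM add the spliced and the unspliced mRNA and give no measure of splicing.

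**Figure D3:**
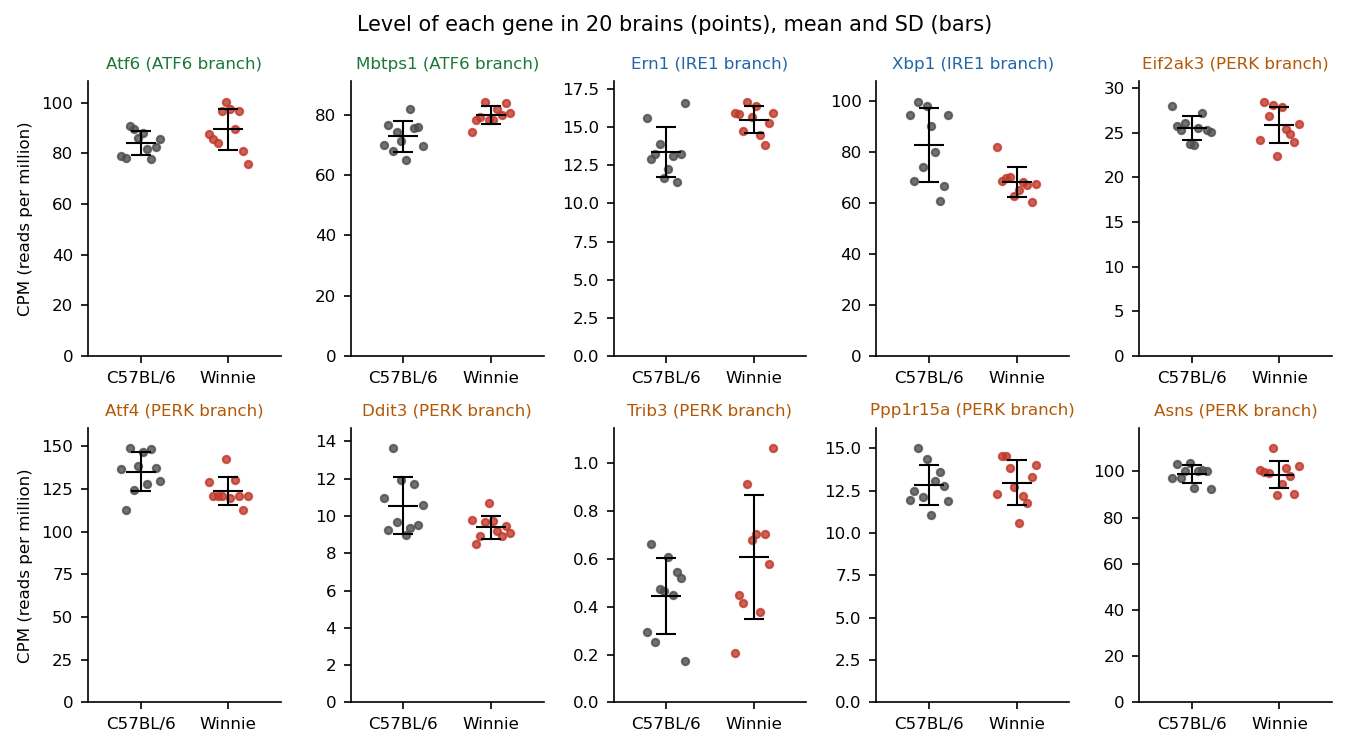
CPM (axes from 0) of each of the 10 genes in each C57BL/6 brain (grey) and *Winnie* brain (red), with the mean and SD of the 10 brains as bars. *Xbp1* spans 60.8 to 99.8 CPM in C57BL/6 and 60.3 to 82.0 CPM in *Winnie*, and the 2 genotypes overlap in every panel.

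In the PERK branch the interval of the sensor gene included 0, and both transcription factors had lower means in *Winnie*. *Eif2ak3* (chr6:70844515-70905245, plus strand) lay at 23.6, 25.4 and 28.0 CPM in C57BL/6 and at 22.3, 25.7 and 28.5 CPM in *Winnie*, with a log2 fold change of 0.013 (95% interval -0.083 to 0.11, limma FDR = 0.925). *Atf4* (chr15:80255184-80257541, plus strand), the central factor of the branch, lay at 112.8, 137.1 and 148.9 CPM in C57BL/6 and at 112.6, 121.2 and 142.5 CPM in *Winnie*. Of the *Winnie* brains 9 were below the C57BL/6 median, the exception being replicate 5, and C57BL/6 replicate 2, at 112.8 CPM, was as low as the lowest *Winnie* brain at 112.6 CPM. The log2 fold change was -0.12 (SE 0.047, limma p = 0.0131, FDR = 0.148, permutation p = 0.0253). Without C57BL/6 replicate 2 it was -0.15 with a limma FDR of 0.0490, the only call with a brain left out. The highest FDR, 0.253, came without C57BL/6 replicate 8 (-0.11).

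*Ddit3* (chr10:127290774-127296288, plus strand) encodes CHOP, a factor of prolonged ER stress that favours cell death. It lay at 8.998, 10.1 and 13.6 CPM in C57BL/6 and at 8.51, 9.31 and 10.7 CPM in *Winnie*, where 9 of 10 brains were below the C57BL/6 median and 4 C57BL/6 brains were above the highest *Winnie* brain. The log2 fold change was -0.15 (SE 0.067, limma p = 0.0316, FDR = 0.228, permutation p = 0.0315). Its coefficient of variation was larger in C57BL/6 (14.3%) than in *Winnie* (6.54%). The same held for *Xbp1*, *Ern1* (12.2% and 5.75%), *Mbtps1* (6.89% and 3.73%) and *Atf4* (8.57% and 6.58%). It was smaller in C57BL/6 for *Atf6*, *Eif2ak3*, *Trib3*, *Ppp1r15a* and *Asns*, and these spreads were not tested. The annotation has a second gene entry of the name *Ddit3* on the same strand, and *Gm4189* and *Mars* on the other, over the same bases, so the counting may have split or shared its reads.

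The genes downstream of ATF4 and CHOP had intervals that included 0. *Asns* (chr6:7675169-7693254, minus strand), asparagine synthetase, a gene that ATF4 induces when amino acids are short, lay at 92.4, 100.1 and 103.7 CPM in C57BL/6 and at 90.0, 99.5 and 110.0 CPM in *Winnie*. Its log2 fold change of -0.0033 (95% interval -0.079 to 0.072, limma FDR = 0.979) was the closest to 0 of the 10. *Ppp1r15a* (chr7:45522916-45526268, minus strand, overlapping *Tulp2* on the other strand), which encodes GADD34 and ends the eIF2 signal, lay at 11.1, 12.6 and 15.006 CPM in C57BL/6 and at 10.6, 13.002 and 14.6 CPM in *Winnie*, with a log2 fold change of 0.014 (95% interval -0.11 to 0.14, limma FDR = 0.939). *Trib3* (chr2:152337422-152344032, minus strand), a pseudokinase that is nearly silent in resting cells, had only 3 to 18 reads per library. It lay at 0.173, 0.468 and 0.663 CPM in C57BL/6 and at 0.208, 0.629 and 1.06 CPM in *Winnie*, and 5 *Winnie* brains were above the highest C57BL/6 brain. The log2 fold change on the log2(CPM + 0.5) scale was 0.22 with the widest interval of the 10 (-0.050 to 0.48, limma FDR = 0.403), and at this depth a difference of that size could not be told from the spread between brains. Since 0.5 CPM is as large as the level of *Trib3* itself, this value understates its difference, which was 0.35 with 0.1 CPM added, 0.45 with edgeR (FDR = 0.346), 0.45 with DESeq2 and 0.41 with limma voom (FDR = 0.418).

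The promoters of *Asns* and *Trib3* are shown because they hold the C/EBP-ATF element, the sequence that ATF4 binds with a C/EBP partner. The letters TGATGNAA were searched on both strands in windows from 250 bases before to 50 bases after the gene start (RefSeq, GRCm38.p6, 9 of the 10 genes in the table, without *Atf6*), and 3.97% of 32851 windows of this length hold them. Of the 9 genes, *Asns* holds 1 match at -23 and *Trib3* 1 match on the reverse strand at 14, counted from the gene start. The windows, written 5′ to 3′ along the gene with the element in capitals, are chr6:7693160-7693459 (minus strand) and chr2:152344011-152344310 (minus strand).
Asns: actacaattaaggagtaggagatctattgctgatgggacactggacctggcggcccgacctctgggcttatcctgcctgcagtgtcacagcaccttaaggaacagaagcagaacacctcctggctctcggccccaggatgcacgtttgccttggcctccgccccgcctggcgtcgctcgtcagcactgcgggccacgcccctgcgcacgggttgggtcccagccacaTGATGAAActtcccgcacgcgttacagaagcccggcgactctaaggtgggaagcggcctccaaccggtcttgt
Trib3: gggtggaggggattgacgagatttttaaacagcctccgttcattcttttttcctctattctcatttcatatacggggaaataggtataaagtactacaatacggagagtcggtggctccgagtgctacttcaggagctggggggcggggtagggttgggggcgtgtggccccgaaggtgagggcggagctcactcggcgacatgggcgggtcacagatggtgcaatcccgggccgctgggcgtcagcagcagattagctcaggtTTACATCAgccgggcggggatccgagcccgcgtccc
The cyclic AMP element TGACGTCA, in 1.79% of windows, was found in *Ppp1r15a* at -12. Both genes with the element of ATF4 had log2 fold changes whose intervals included 0, as given above.

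By branch, the median log2 fold change was 0.11 over the 2 ATF6 genes, -0.026 over the 2 IRE1 genes and 0.0048 over the 6 PERK genes, beside 0.0022 over all genes. The ranges were 0.089 to 0.13, -0.26 to 0.21 and -0.15 to 0.22. The spread within the IRE1 and PERK branches was thus wider than the differences between the branch medians, and no branch was tested against another because their members were chosen and few. For the mean deviation of each brain from C57BL/6, 10 of 10 *Winnie* brains were above 0 in the ATF6 branch, 3 in the IRE1 branch and 3 in the PERK branch.

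The next question was whether a regulator and its partner or target varied together from brain to brain. For 10 pairs, deviations of log2(CPM + 0.5) from the genotype mean were correlated over the 20 brains with two-sided permutation tests and Benjamini-Hochberg adjustment over the pairs. Values were permuted across both genotypes, although *Xbp1* and *Ddit3*, for example, spread more in C57BL/6, so these p are approximate. *Xbp1* and *Hspa5*, which encodes the main ER chaperone BiP, had Pearson's r = 0.89 (permutation p = 1e-05, the smallest that the permutations can give, adjusted p = 1e-04) and Spearman's rho = 0.92 (adjusted p = 1e-04). The relation was present in both genotypes, with r = 0.93 in C57BL/6 and 0.75 in *Winnie*, and r was 0.91 without the 2 brains farthest from the median of *Xbp1* (C57BL/6 replicates 3 and 8). The brains with high *Xbp1* were thus those with high *Hspa5*. *Atf4* and *Ddit3* had r = 0.56 (permutation p = 0.0104, adjusted p = 0.0521) and rho = 0.52 (permutation p = 0.0215, adjusted p = 0.108), which did not pass the adjustment, and r = 0.43 without the 2 farthest brains.

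The other 8 pairs had unadjusted permutation p of 0.166 or more for r. *Ern1* with *Xbp1* had r = 0.32, which fell to 0.088 without C57BL/6 replicates 1 and 10. *Atf6* had r = -0.30 with *Mbtps1* and 0.32 with *Hspa5*. *Eif2ak3* with *Atf4* had r = -0.31. *Atf4* had r = -0.21 with *Asns* and -0.19 with *Trib3*, and *Ddit3* with *Trib3* had -0.26. *Xbp1* had r = -0.076 with *Dnajb9*, an ER co-chaperone known as a target of XBP1s, in contrast to its value with *Hspa5*.

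**Figure D4:**
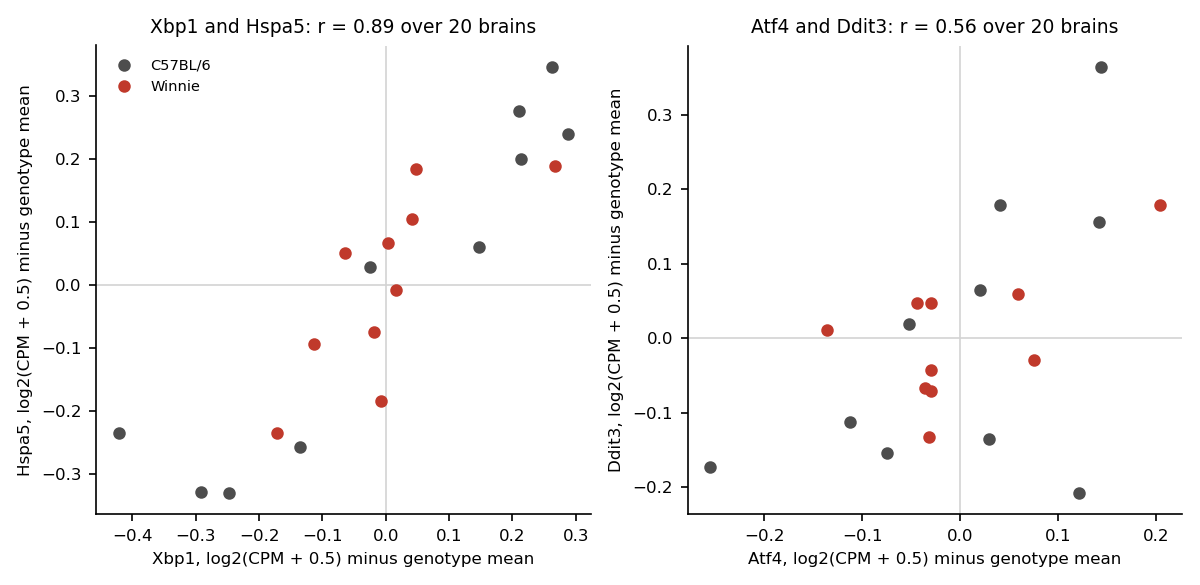
Deviation of log2(CPM + 0.5) from the genotype mean for *Xbp1* against *Hspa5* (left) and *Atf4* against *Ddit3* (right), with 1 point per brain, C57BL/6 in grey and *Winnie* in red. The points of *Xbp1* and *Hspa5* follow 1 line (r = 0.89) in both genotypes, and those of *Atf4* and *Ddit3* scatter more (r = 0.56).

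Across all genes with a mean of at least 1 CPM, those most like a member over the 20 brains were found by the same correlation, as a description without a test. The values share their libraries and their depth. The leading genes for *Xbp1* were *P4ha1*, a collagen prolyl hydroxylase of the ER (r = 0.90), *Hspa5* (0.89) and *Pdia4*, a disulfide isomerase of the ER (0.89), so all 3 encode ER proteins. No other member had a gene of the lists of unfolded protein response genes among its 3. *Atf6* was most like *Prss23* (r = 0.82), *Rgs7bp* (0.81) and *Gm14290* (0.79), and *Mbtps1* most like *Nsun3* (0.87), *Zfp941* (0.84) and *Gm15912* (0.83). *Ern1* was most like *Nufip2* (0.81), *Chd1* (0.81) and *Anks1* (0.78). In the PERK branch, *Atf4* was most like *Nup62* (0.75), *Cap2* (0.74) and *Ube2ql1* (0.73), and *Ddit3* like *Tpm1* (0.85), *Spef1* (0.75) and *Spry2* (0.73). *Trib3* was most like *Pcif1* (0.73), *Bin2* (0.73) and *Lypd6* (0.71), *Ppp1r15a* like *Gnb4* (0.86), *Rgs12* (0.85) and *Fzr1* (0.83), and *Asns* like *Gm6984* (0.95), *Sppl3* (0.89) and *Parp11* (0.88).

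Among the genes that the nuclear factors ATF6 and XBP1s switch on, 9 genes for ER chaperones, folding enzymes and their partners fell in *Winnie* brains. The 24 analysed are genes of ER folding, degradation, protein entry and export. By limma at an FDR under 0.05, 9 were called lower and 0 higher, beside 1.01% and 1.52% of all genes. At an unadjusted p under 0.05 there were 14 lower and 1 higher, beside 8.08% and 9.53% of all genes. This list, like the others, was chosen with earlier results of these data known, so its counts describe it and do not test it. The median log2 fold change of the 24 was -0.16, beside 0.0022 over all genes. Of the 24, 20 were below 0, as were 8437 of all 17211 genes. The genes called were *Hspa5*, *Calr*, *Hsp90b1*, *Pdia3*, *Pdia4*, *Pdia6*, *Sdf2l1*, *Manf* and *Hyou1*. *Selenos* was not analysed here. The count was 4 without C57BL/6 replicate 3, without C57BL/6 replicate 5 or without *Winnie* replicate 8, and 5 without *Winnie* replicate 7, and ranged from 4 to 11 over all brains left out in turn, while the median stayed between -0.18 and -0.14.

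*Hspa5* lay at 169.1, 219.4 and 270.8 CPM in C57BL/6 and at 137.3, 164.1 and 184.4 CPM in *Winnie*, with all 10 *Winnie* brains below the C57BL/6 median and 6 below the lowest C57BL/6 brain. C57BL/6 replicates 2, 4, 8 and 9, which were low for *Xbp1*, lay at 169.1 to 180.7 CPM, within the *Winnie* range. Their *Pdia4*, at 39.0 to 40.6 CPM, was also below the highest *Winnie* brain (43.3 CPM). *Hspa5* fell by 0.40 on the log2 scale (SE 0.093, limma FDR = 0.0292). *Calr*, the gene for the calcium-binding chaperone calreticulin, lay at 370.6, 393.7 and 489.1 CPM in C57BL/6 and at 290.3, 329.0 and 361.7 CPM in *Winnie*. The genotypes did not overlap, and it fell by 0.29 (SE 0.045, limma FDR = 0.0011). The largest difference of the list was that of *Sdf2l1*, an ER co-chaperone, at 6.77 ± 1.70 CPM (SD, n = 10) in C57BL/6 and 3.996 ± 1.07 CPM in *Winnie*, which fell by 0.69 (SE 0.14, limma FDR = 0.0112). The disulfide isomerases *Pdia6*, *Pdia4* and *Pdia3* fell by 0.31, 0.33 and 0.16, the chaperones *Hsp90b1* and *Hyou1* by 0.21 and 0.16, and the secreted ER factor *Manf* by 0.30, each at a limma FDR of 0.0412 or less.

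Among those not called, *Creld2* (-0.35, limma FDR = 0.0526), *Dnajb11* (-0.18, FDR = 0.0585) and *Sec24d* (0.19, FDR = 0.0652) were the closest to the threshold. *Sec24d* encodes a coat protein of vesicles that leave the ER and was the only gene of the list above C57BL/6 at an unadjusted p under 0.05. The degradation genes *Edem1* (0.00016), *Herpud1* (0.023), *Syvn1* (-0.022) and *Sel1l* (-0.053) and the co-chaperone *Dnajb9* (0.0060) had log2 fold changes near 0 with limma FDR of 0.473 or more. The chaperone genes *Canx* (-0.096, FDR = 0.184) and *Dnajc3* (-0.056, FDR = 0.599) were also not called, nor was the degradation gene *Derl3* (-0.24, unadjusted limma p = 0.0288).

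The ER stress response element (ERSE), the site that ATF6 with NF-Y or XBP1s binds, is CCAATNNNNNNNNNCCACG and was searched on both strands in the same promoter windows. It is in 0.119% of 32851 windows, in 0 of the 9 windows of the sensors and transcription factors, and in 9 of the 20 windows of the ATF6 and XBP1s targets. No match says only that these letters are not in that window. *Hspa5*, *Calr* and *Pdia6* are shown as genes that hold it and were called lower, with the element in capitals and its start at -65, -162 (reverse strand) and -98 from the gene start. The windows are chr2:34771840-34772139 (plus strand), chr8:84846882-84847181 (minus strand) and chr12:17266339-17266638 (plus strand), written 5′ to 3′ along the gene.
Hspa5: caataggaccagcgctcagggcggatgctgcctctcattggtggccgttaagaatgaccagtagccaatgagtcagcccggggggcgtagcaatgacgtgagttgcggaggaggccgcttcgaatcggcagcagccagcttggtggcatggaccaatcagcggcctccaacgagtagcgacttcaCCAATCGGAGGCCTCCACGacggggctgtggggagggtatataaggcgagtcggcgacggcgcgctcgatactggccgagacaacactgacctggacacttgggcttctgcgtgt
Calr: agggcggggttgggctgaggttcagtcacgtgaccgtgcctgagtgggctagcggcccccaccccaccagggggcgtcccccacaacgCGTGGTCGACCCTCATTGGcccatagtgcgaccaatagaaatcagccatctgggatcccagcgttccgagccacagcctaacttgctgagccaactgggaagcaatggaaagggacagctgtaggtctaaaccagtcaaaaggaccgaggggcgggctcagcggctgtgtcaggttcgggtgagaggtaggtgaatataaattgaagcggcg
Pdia6: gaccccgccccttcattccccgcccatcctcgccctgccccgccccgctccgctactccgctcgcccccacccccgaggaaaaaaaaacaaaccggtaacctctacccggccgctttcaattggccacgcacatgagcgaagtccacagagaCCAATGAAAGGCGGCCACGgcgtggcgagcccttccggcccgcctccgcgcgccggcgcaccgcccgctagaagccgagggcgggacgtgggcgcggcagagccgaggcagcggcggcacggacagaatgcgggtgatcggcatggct
All 9 genes with the element (*Calr*, *Canx*, *Creld2*, *Derl3*, *Dnajc3*, *Hsp90b1*, *Hspa5*, *Pdia6* and *Syvn1*) had log2 fold changes below 0, from -0.40 to -0.022 with a median of -0.24, and 4 were called. The 11 genes whose window lacks these letters ranged from -0.69 to 0.19 with a median of -0.11, and 7 were below 0. Of these 11, 3 were called (*Pdia3*, *Pdia4* and *Sdf2l1*), and *Sdf2l1* had the largest fall of the list. The other 4 genes had no window in the table, and 2 of them were called. This split is a description and was not tested. The letters GACGTGG, a core of XBP1 sites found in 2.42% of windows, are in those of *Pdia6* and *Sec24d* and in 0 of the 9 windows of the sensors and transcription factors.

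Among the genes that ATF4 and CHOP switch on, an amino acid transporter rose in *Winnie* brains and the rest were not called. Of 31 analysed, 1 was called higher and 0 lower by limma, beside 1.52% and 1.01% of all genes, with 6 higher and 4 lower at an unadjusted p under 0.05, beside 9.53% and 8.08%. In either direction 10 of the 31 were at this unadjusted p, a larger share than the 17.6% of all genes. This list too was chosen with earlier results of these data known, so its counts describe it and do not test it. The median log2 fold change was -0.015. The gene called was *Slc7a5*, the large neutral amino acid transporter LAT1, at 74.6 ± 6.15 CPM (SD, n = 10) in C57BL/6 and 90.5 ± 3.85 CPM in *Winnie*. The highest C57BL/6 brain was at 85.2 and the lowest *Winnie* brain at 85.6 CPM, so the genotypes did not overlap, and *Slc7a5* rose by 0.28 on the log2 scale (SE 0.042, limma FDR = 0.0011). The transporter *Slc7a1* (0.13, limma FDR = 0.0769) and, in the other direction, the transcription factor *Atf5* (-0.16, FDR = 0.175) and the serine synthesis gene *Psph* (-0.16, FDR = 0.191) came next and were not called. The aminoacyl-tRNA synthetases *Aars*, *Nars*, *Sars*, *Gars*, *Eprs* and *Wars* had log2 fold changes between -0.060 and 0.026. *Gdf15* and *Fgf21* were not analysed here. The C/EBP-ATF element was in 7 of the 24 windows of this list (*Aars*, *Atf3*, *Chac1*, *Gars*, *Nupr1*, *Pck2* and *Slc7a11*), with a median log2 fold change of -0.052, -0.015 in the 17 genes without it, and 0 called in both.

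**Figure D5:**
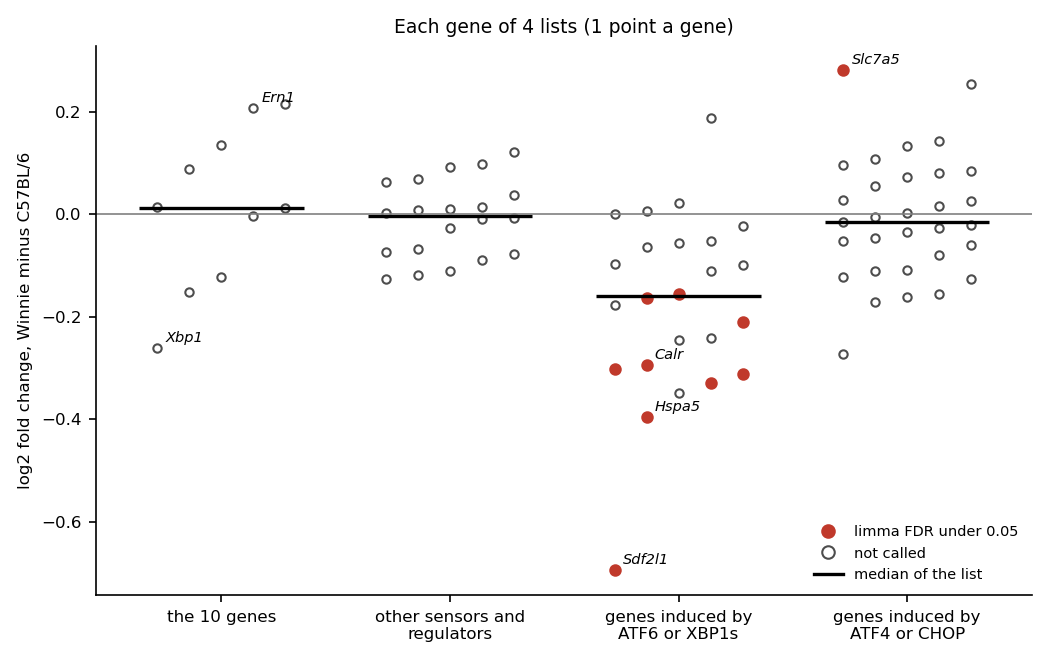
Log2 fold change (*Winnie* minus C57BL/6, limma on log2(CPM + 0.5)) of each gene in 4 lists, with filled red points for an FDR under 0.05 and a bar at the median of each list. The genes induced by ATF6 or XBP1s have 9 red points, all below 0, and a median of -0.16, the genes induced by ATF4 or CHOP have 1 red point, *Slc7a5* at 0.28, and the 10 sensors and transcription factors and the 20 other regulators have none.

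The 20 other sensors and regulators of the response, among them the site-2 protease *Mbtps2*, the *Atf6* paralog *Atf6b*, the other eIF2 kinases and the subunits of the exchange factor eIF2B, had 0 called by limma, edgeR, DESeq2 and limma voom. At an unadjusted limma p under 0.05 there were 2 lower and 1 higher, beside 17.6% of all genes in either direction, and the median log2 fold change was -0.0024. The 3 were *Atf6b* (-0.089, limma p = 0.0198, FDR = 0.182), *Eif2b5* (-0.11, FDR = 0.246) and *Eif2b3* (0.12, FDR = 0.257). *Atf6b* was below the C57BL/6 median in all 10 *Winnie* brains while *Atf6* was above it in 8.

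Other measures differed between the genotypes beside these genes. Of 10 genes induced by glucocorticoids, 4 were called higher by limma (*Plin4*, *Sgk1*, *Sult1a1* and *Tsc22d3*), beside 1.52% of all genes, and the list summed to 259 to 561 CPM in C57BL/6 and 467 to 651 CPM in *Winnie*. Of 6 endothelial markers, *Cldn5* was called lower (-0.47, limma FDR = 0.0033) and 5 had positive log2 fold changes, with sums of 157 to 224 and 178 to 214 CPM. At an unadjusted p under 0.05, 3 of the 5 were higher (*Slco1a4* at 0.34 with an FDR of 0.0503, *Ly6c1* at 0.21 and *Abcb1a* at 0.17), and edgeR called 1 higher and 1 lower. The remaining lists had 0 genes called by limma and by edgeR. Their counts at an unadjusted p under 0.05, to be read beside 17.6% of all genes, were 2 of 7 for microglia (242 to 274 CPM in C57BL/6, 228 to 296 in *Winnie*), 0 of 7 for the choroid plexus (740 to 1063 and 507 to 1024), 1 of 6 for meningeal fibroblasts (135 to 195 and 144 to 203), 1 of 3 for plasma and B cells (16.7 to 27.1 and 12.7 to 25.5), 0 of 3 for the pituitary (0.561 to 3.59 and 0.542 to 27.2), 1 of 5 for blood (93.6 to 208.4 and 40.6 to 149.8) and 1 of 10 for immediate early genes (441 to 1899 and 405 to 1230). Plasma cells are rich in *Xbp1*, and their part in its level was not tested. Of the 3 plasma and B cell markers, *Ighm* was at 21.5 CPM in C57BL/6 and 17.4 CPM in *Winnie* (log2 fold change -0.32, limma p = 0.0188, FDR = 0.178). *Jchain* was at 0.501 and 0.477 CPM (limma FDR = 0.946) and *Igkc* at 0.418 and 0.363 CPM (limma FDR = 0.799). These 2 had only 2 to 18 and 3 to 17 reads per library. The genes *Mzb1*, *Cd79a* and *Cga* were not analysed here. The share of mitochondrial reads was 7.71% to 9.21% in C57BL/6 and 5.96% to 10.8% in *Winnie*. The part of these measures in the differences of the unfolded protein response genes was not tested.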

How the data were processed

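For each mouse, the authors sequenced a polyA library of brain RNA with paired-end reads. Reads went through RNAsik against GRCm38, and featureCounts gave counts for each gene. The deposited values are CPM that the authors made from these counts with Degust and no further scaling factor, and whether the counting used strand and which aligner was used were not given in the sources used here. In each library every value was a whole number of reads within 0.05 reads (100% of values), so reads were recovered for the count models. The reads behind each value set its counting error only.

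Samples were grouped by genotype label, and all 20 were used. The study's methods name fewer brains per genotype than the labels and not which ones, so the set analysed here is larger. Genes were compared on log2(CPM + 0.5) with limma 3.58.1 (trend and robust variance, R 4.3.3), which used the spread between mice. The FDR was adjusted over all 17211 genes by the Benjamini-Hochberg method. This replaces edgeR, named in the study's methods, because the file holds CPM. The means of single genes were permuted over samples (two-sided, 100000 resamples, Python 3.11.15 with numpy 2.4.6 and scipy 1.17.1). Of the tests, only limma and edgeR were also run on simulated counts, and the outcome is not reported here. Positions are those of GENCODE M21 (17128 genes matched) and promoter windows those of RefSeq. The 10 genes and all lists of targets and markers were chosen with earlier results of these data known. The genes named are the 10, the genes of the 3 lists of regulators and targets with an FDR under 0.05 and the 3 of each with the next smallest p, *Xist* and *Ddx3y*, and the 3 genes most like each member (those of *Eif2ak3* are not reported here), and other genes named were chosen after their values were seen.

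Alternatives were pseudocounts of 0.1 and 1 CPM, a minimum mean of 1 CPM, median-ratio scaling, edgeR 4.0.16, DESeq2 1.42.0 and limma voom on the recovered reads, the omission of each sample, a replicate block, a covariate (labelled sex or *Ddx3y*), and the threshold of the study. Replicate numbers of the labels did not pair the samples, since the correlation of deviations between mice of the same number was over 0.1 in 2 of 10 pairs (-0.342 to 0.172).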

Additional observations from a re-analysis of the deposited data

Results flagged for a closer look

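In the *Winnie* group, replicate 1 had the highest *Xbp1* level, 82.0 CPM, and lay farther from the next brain than the spread of the other *Winnie* brains allows by Dixon's ratio (0.539, above its 95% limit for 10 samples). This brain was still below the C57BL/6 median of 85.3 CPM. It was the only such value in the 20 groups of 10 brains checked, and chance alone flags about 1 in 20 groups.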

How the results depend on the processing

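The number of genes called at an FDR under 0.05 was 434, and it was 968 with DESeq2, 227 with the replicate block and 0 by limma at the threshold of the study. With 1 brain left out it ranged from 169 to 694. It moved by over 1.5 times without C57BL/6 replicates 3 (238), 5 (169), 8 (250), 9 (270) and 10 (694) and without *Winnie* replicates 2 (264), 3 (241), 7 (256) and 8 (216). The number of the 10 genes called was 0, and it was 2 with a minimum mean of 1 CPM, 2 with median-ratio scaling, 1 with edgeR, 3 with DESeq2 and 2 with limma voom. It stayed at 0 with pseudocounts of 0.1 and 1, with either covariate, with the replicate block and at the threshold of the study. With 1 brain left out it ranged from 0 to 2, with *Mbtps1* called without C57BL/6 replicates 2 (0.14) and 7 (0.15) and without *Winnie* replicate 1 (0.15), *Ern1* without C57BL/6 replicates 1 (0.23) and 10 (0.24), *Xbp1* without C57BL/6 replicate 8 (-0.31) and *Atf4* without C57BL/6 replicate 2 (-0.15), each given as its log2 fold change. The number at an unadjusted p under 0.05 was 5 with each model, scaling, covariate and filter, and it ranged from 4 to 6 with 1 brain left out. Directions changed only for log2 fold changes close to 0, with ranges over the brains left out of -0.0029 to 0.035 for *Eif2ak3*, -0.0078 to 0.045 for *Ppp1r15a* and -0.021 to 0.011 for *Asns*. Same-numbered brains are different mice, so the replicate block removes no known pairing, and with it no other call of the 10 genes changed. Depth limits *Trib3*, with 3 to 18 reads per library.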
